A study of Homo sapiens with 6 samples.

Results

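Double-negative cells, which lacked both CD13 and CD201 at the surface, were compared with CD201-only cells, which lacked CD13 but kept CD201, on day 8 of reprogramming. Both were sorted from BJ fibroblasts, an established human line from foreskin, that carried lentiviral O2S and K2M polycistronic constructs for OCT4, SOX2, KLF4 and MYC. All cells grew first in fetal bovine serum, were passaged onto Matrigel and ended in medium for human embryonic stem cells. CD13 is the product of ANPEP and CD201 the product of PROCR. Each group has 2 libraries, and 2 libraries of double-positive cells (CD13 and CD201 both present), made in the same way, complete the 6 of the series. The labels do not say whether the libraries of a group came from separate cultures, so p-values measure only the spread between these libraries, which may be technical. The sort gates are not described beyond the marker profile, and no group holds unsorted or uninfected cells. The comparison takes the 12125 of 27788 gene symbols that averaged at least 1 FPKM (fragments scaled to transcript length and library size) over the 4 CD13-negative libraries. At that limit LOC102723703, at 1.07, 0.915, 1.01 and 0.999 FPKM, with a mean of 1.00002 before rounding, was kept, and ETNPPL, at 1.88, 1.57, 0.408 and 0.147 FPKM, with a mean of 0.99997, was left out.

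Reprogramming by these 4 factors first silences the fibroblast programme and lets cells take on epithelial features, and the network that sustains pluripotency is switched on late and in few cells. CD201, the endothelial protein C receptor, presents protein C to thrombin and thrombomodulin, through which it takes part in anticoagulant and cytoprotective signalling. CD13 is a membrane aminopeptidase that is abundant on fibroblasts.

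The gene used for the sort followed the labels. PROCR was at 16.6 and 17.98 FPKM in the double-negative libraries, 45.8 and 49.1 FPKM in the CD201-only libraries and 51.3 and 52.5 FPKM in the double-positive libraries. ANPEP, on which the CD13-negative groups were not separated from each other, was at 35.7 and 36.2 FPKM in double-negative, 29.05 and 28.7 FPKM in CD201-only and 158 and 153 FPKM in double-positive cells. It was slightly higher in double-negative than in CD201-only cells, with a log2 difference of 0.31 ± 0.031 (standard error; adjusted p = 0.000275). Here and below a difference is double-negative minus CD201-only on the log2(FPKM + 1) scale, and a gene is called at a Benjamini-Hochberg adjusted p under 0.05 in limma. The markers bear out the label of fibroblast only in part. In double-negative cells THY1 was at 1644 and 1639 FPKM and COL1A1 at 303 and 307 FPKM. The matrix gene LUM, at 0.442 and 0.614 FPKM, and the mesenchymal gene FAP, at 0.840 and 0.338 FPKM, were low in these cells. Listed collagens summed to 2516 and 2520 FPKM in them, against 8390 and 8173 FPKM in double-positive cells.

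Libraries of one group resembled each other closely. The lowest correlation of log2 values within a group was 0.994, against 0.9803 for the closest pair of a double-negative and a CD201-only library. FPKM summed to between 511947 and 521352 in the 4 libraries, and the relative depth, read from the steps between the lowest values of a gene, ran from 0.784 to 1.0. The median coefficient of variation between replicates was 5.23% in double-negative and 5.44% in CD201-only cells for genes of 1 to 10 FPKM, and 0.967% and 1.38% for genes above 100 FPKM. The difference between the groups also moved with base composition. Across 11865 genes with a known transcript, the Spearman correlation of the difference with transcript GC content was -0.418, whereas it was -0.0216 between the double-negative replicates and 0.0414 between the CD201-only replicates. Genes share libraries and are not independent replicates, so these correlations carry no p. With the genes split by GC content into 10 groups, from the lowest (32.0% to 40.7%) to the highest (62.2% to 76.8%), the median difference went from 0.142 to -0.0963. Whether the libraries or the cells differ in this respect cannot be told apart, and the fit was therefore repeated after a smooth correction for GC content on the genes that have a value. Of the genes called at 1.5-fold or more with a known GC content, 470 of 473 that were higher and 419 of 419 that were lower were still called in the same direction, and 370 and 347 of them still reached 1.5-fold.

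**Figure D1:**
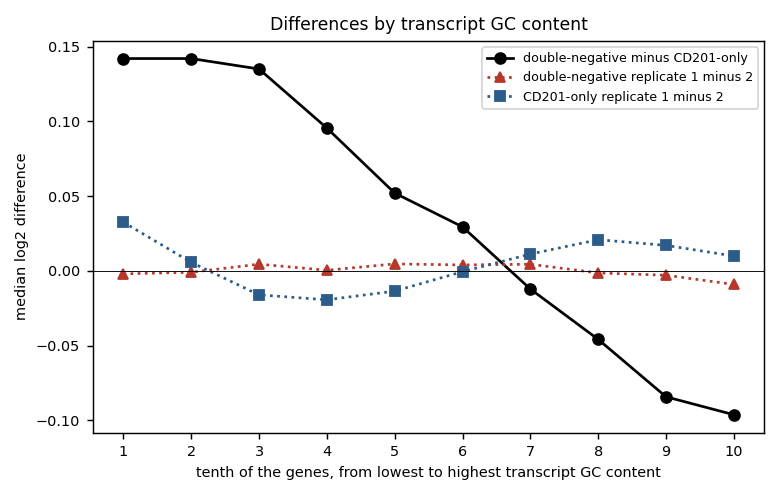
Median log2 difference (y axis) in 10 equal groups of genes ordered by transcript GC content (x axis), for double-negative minus CD201-only cells and for the replicates of each group. The group difference runs from 0.142 to -0.0963, and the replicate differences stay between -0.0194 and 0.0325.

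Across the transcriptome, 4590 of 12125 genes (37.9%) were called, of which 2603 were higher (21.5%) and 1987 lower (16.4%) in double-negative cells. Without the first or the second double-negative library 2884 and 3020 genes were called, 1582 and 1633 of them higher. The balance also depends on scaling, since median-ratio rescaling gave 2147 higher and 2434 lower. The groups did not overlap for 8706 genes, or 71.8% of those tested, and 5719 genes had an unadjusted p under 0.05. Most called differences were small: 906 genes (7.47%) reached 1.5-fold, 480 higher (3.96%) and 426 lower (3.51%), and 276 genes (2.28%) reached 2-fold, 132 higher (1.09%) and 144 lower (1.19%). The median difference of all genes tested was 0.0369. With 37.9% of all genes called, a list of genes stands apart only where its share, its direction or its median does. The limit of 1 FPKM favours genes that differ, because 383 genes averaged under 1 FPKM in 1 group and passed through the other alone. Of these 208 were called, and counts that include them are no evidence of a difference by themselves. Among the genes named below they include KRT13, PKP1, FOXA1, KDR, PDE2A, MMP3, WNT7A, BMP2, BMP6, MT3, CXCL12, CXCL2, PTGS2, SAA1, HLA-F and PAPPA. Others named below are KRT80, SPRR1A, P4HA3, IFIT1, DDX60, LAMA3, RAB25 and TIE1. In bulk RNA, fewer cells that express a gene and less RNA of it per cell cannot be told apart.

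**Figure D2:**
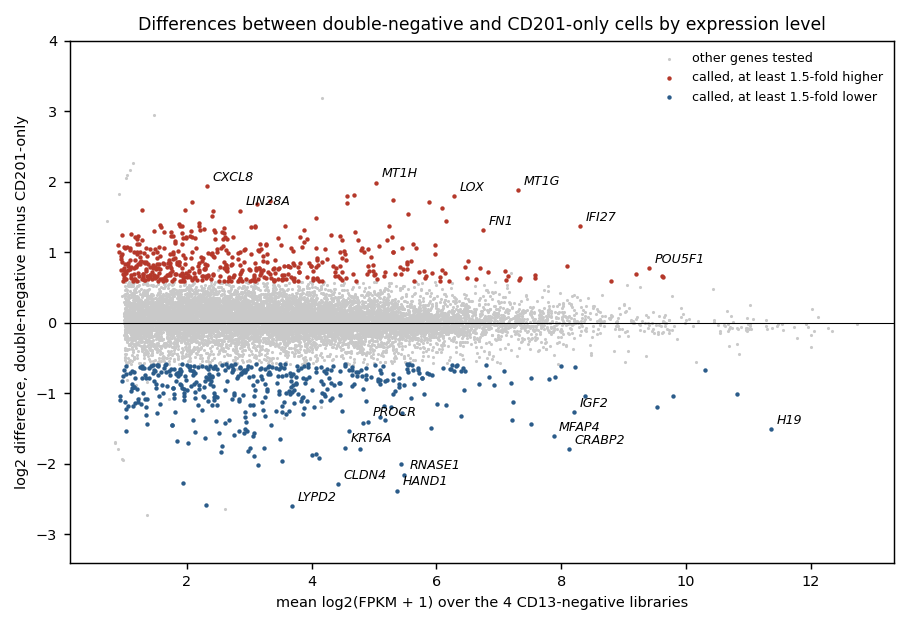
Log2 difference between double-negative and CD201-only cells (y axis) against the mean log2(FPKM + 1) over the 4 libraries (x axis), with 1 point per gene. Coloured points are the 480 genes called at least 1.5-fold higher and the 426 called at least 1.5-fold lower, and genes that the text describes are labelled.

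The reprogramming factors themselves were unequal between the groups. POU5F1, which encodes OCT4, was at 891 and 896 FPKM in double-negative and 531 and 511 FPKM in CD201-only cells, a ratio of 1.72 (log2 difference 0.78 ± 0.029, adjusted p = 3.33e-06). SOX2 was at 747 and 746 against 474 and 454 FPKM, a ratio of 1.61 (log2 difference 0.69 ± 0.025, adjusted p = 3.27e-06). KLF4 was not called, at 165 and 167 FPKM against 168 and 170.5 FPKM (log2 difference -0.03 ± 0.027, adjusted p = 0.488). MYC fell by 0.09 ± 0.025 (adjusted p = 0.0297), from 138 and 135 to 128 and 128 FPKM, and it was no longer called after the GC correction (-0.02, adjusted p = 0.506) or without any 1 of the 4 libraries. The factors carried together on O2S were thus higher in double-negative cells, and those on K2M were not called higher. Transcripts from the constructs and from the cells' own genes cannot be told apart in a gene-level table.

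Pluripotency genes were mostly higher in double-negative cells, although NANOG was not among them. Of 51 listed genes 26 were tested, and 18 of the 26 rose and 5 fell while 3 missed the threshold. The median difference was 0.423. LIN28A, an RNA-binding protein that blocks maturation of let-7 microRNAs, had the largest rise of the list, from 3.16 and 3.14 FPKM in CD201-only to 12.1 and 10.96 FPKM in double-negative cells (log2 difference 1.59 ± 0.1, adjusted p = 3.25e-05). PROM1, which encodes the surface protein CD133, rose from 3.84 and 4.39 to 11.7 and 12.7 FPKM (log2 difference 1.36, adjusted p = 2.37e-05). The growth factor gene GDF3 rose from 32.5 and 35.01 to 59.9 and 61.6 FPKM, and the Nodal antagonist LEFTY1 from 2.37 and 2.49 to 4.79 and 5.15 FPKM. For these 4 genes both double-negative libraries lay above both CD201-only libraries. The 2 groups did not overlap, in either direction, for 71.8% of all genes tested. The double-positive libraries were lower still for these 4 genes, at 1.92 and 1.42 FPKM for LIN28A and 15.6 and 17.1 FPKM for GDF3. The de novo methyltransferase DNMT3B rose by 0.72 (from 10.03 and 9.696 to 17.4 and 16.5 FPKM), and the Polycomb subunit PHC1 by 0.66. NANOG, the homeobox gene central to pluripotency, was at 3.75 and 4.11 FPKM in double-negative and 4.73 and 3.62 FPKM in CD201-only cells, with overlapping groups (log2 difference -0.06 ± 0.11, adjusted p = 0.692). The 5 members that fell were SALL1, KLF2, UTF1, SOX15 and CD9, by 0.12 to 0.55. Of the 25 members under the expression limit, LIN28B, DPPA2, DPPA5, OTX2 and SOX3 were listed at 0 in all 4 libraries, and DPPA4 was at 1.39 and 0.943 FPKM against 0.434 and 0.726 FPKM.

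Surface proteins that have been used to follow reprogramming went in both directions. Of 28 tested, 16 rose and 6 fell (median 0.236). GPC4, a glypican that anchors heparan sulphate at the membrane, rose from 4.18 and 4.83 to 18.6 and 16.1 FPKM (log2 difference 1.73 ± 0.089, adjusted p = 1.27e-05), and double-positive cells had 2.19 and 2.25 FPKM. The immunoglobulin-family protein CD200 rose by 1.36, from 4.09 and 4.597 to 13.3 and 12.2 FPKM. Among those that fell, apart from the sort gene PROCR, the largest change was that of DPP4, the serine peptidase CD26, from 25.97 and 24.4 to 12.5 and 11.4 FPKM. THY1 rose by 0.48. EPCAM, at 3.93 and 3.09 FPKM against 2.67 and 2.47 FPKM, was not called (log2 difference 0.33, adjusted p = 0.0599), but it was called when only the 4 libraries compared were fitted (0.0492) and without the second double-negative library (0.042).

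Metallothioneins, small cysteine-rich proteins that bind zinc, copper and cadmium, were listed together with their regulator MTF1 and the zinc exporter SLC30A1, and this list had the highest median, 0.651. Of its 12 tested members 9 rose and none fell, 7 of them by at least 1.5-fold. Of the 10 that are metallothioneins themselves 8 rose and none was called lower (median 0.669). The lowest difference, also of a metallothionein, was -0.418 and was not called. The family is encoded in a cluster on chromosome 16 and is induced by metals through the factor MTF1, which binds metal response elements in the promoters. The 250 bases before the start site are shown for the tested metallothioneins that the promoter table holds, MT1H, MT1X and MT2A, because most members of the family rose. They are read 5′ to 3′ on the gene's strand, from RefSeq on GRCh38.p14, with matches on either strand to the core TGCACNC or TGCGCNC in capitals.
MT1H, chr16:56669564-56669813, plus strand: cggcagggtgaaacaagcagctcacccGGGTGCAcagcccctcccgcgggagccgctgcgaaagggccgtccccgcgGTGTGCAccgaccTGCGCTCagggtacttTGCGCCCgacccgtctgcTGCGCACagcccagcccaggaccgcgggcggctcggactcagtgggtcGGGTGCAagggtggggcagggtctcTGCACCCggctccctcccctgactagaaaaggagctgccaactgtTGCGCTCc
MT1X, chr16:56682220-56682469, plus strand: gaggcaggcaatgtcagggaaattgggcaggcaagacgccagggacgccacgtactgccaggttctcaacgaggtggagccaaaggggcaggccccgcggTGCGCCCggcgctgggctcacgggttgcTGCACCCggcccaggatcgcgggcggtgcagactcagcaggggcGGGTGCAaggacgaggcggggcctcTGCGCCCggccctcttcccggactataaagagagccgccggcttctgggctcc
MT2A, chr16:56608334-56608583, plus strand: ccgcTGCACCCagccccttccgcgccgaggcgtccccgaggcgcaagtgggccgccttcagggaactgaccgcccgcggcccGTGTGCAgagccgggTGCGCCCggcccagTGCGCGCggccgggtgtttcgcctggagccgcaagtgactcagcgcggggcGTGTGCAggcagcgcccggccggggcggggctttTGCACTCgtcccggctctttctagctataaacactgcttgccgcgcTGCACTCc
The core occurs 8 times before MT1H, 4 times before MT1X and 7 times before MT2A, with no overlap between matches. It occurs at least once in 24.7% of 27305 promoters of that length and 34.0% of the 9387 that belong to tested genes, but 4 or more times in 0.366% and 0.469%. Promoters of 5 list members were matched in all. SLC30A1, the zinc exporter, has 1 match, and MTF1 has none. A match describes the letters of the sequence and not binding.

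MT1H was at 66.4 and 61.8 FPKM in double-negative and 16.5 and 14.5 FPKM in CD201-only cells, a ratio of 4.15 (log2 difference 1.99 ± 0.086, adjusted p = 5.5e-06). MT1G, the more abundant of this pair, was at 314 and 293 FPKM against 80.5 and 82.98 FPKM (log2 difference 1.88 ± 0.04, adjusted p = 2.94e-07). MT1F rose from 6.57 and 10.1 to 20.4 and 20.3 FPKM. MT2A and MT1X, the widely expressed members, rose by 0.64 and 0.66, and MT1E by 0.52. MT3 rose by 0.74, from 0.364 and 0.612 to 1.93 and 1.11 FPKM, and lost its call without the first CD201-only library (adjusted p = 0.0695). MTF1 itself did not pass the test, with a difference of -0.01 (adjusted p = 0.943), and SLC30A1 rose by 0.18. Double-positive cells resembled CD201-only cells for MT1H, at 15.4 and 13.1 FPKM, and lay below them for MT1G, at 61.2 and 58.7 FPKM. The summed level of all 13 listed genes was 2693 to 2793 FPKM in double-negative and 1651 to 1665 FPKM in CD201-only libraries. The genes are near copies of each other, so the division of reads among them is uncertain.

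Inflammatory genes, which are cytokines and chemokines together with regulators such as NFKBIA and enzymes such as PTGS2, had a median of 0.466. Of 20 tested members 12 rose, 10 of them by at least 1.5-fold, and 4 fell. Of the 13 whose products are secreted 10 rose and 1 fell. CXCL2, CXCL12, PTGS2 and SAA1 reached the expression limit through double-negative cells alone. All of them but PTGS2 have secreted products, so the 10 rises include genes that the limit favoured. Without CXCL2, CXCL12, PTGS2 and SAA1, 8 of 16 list members rose and 4 fell and the median was 0.17. The CXC chemokines that attract neutrophils lie together on chromosome 4 and are classic targets of NF-kB. The 250 bases before the start are shown for the 3 of them with the largest rises, with matches on either strand to GGNNTTTCC, an NF-kB-like sequence, in capitals.
CXCL8, chr4:73740319-73740568, plus strand: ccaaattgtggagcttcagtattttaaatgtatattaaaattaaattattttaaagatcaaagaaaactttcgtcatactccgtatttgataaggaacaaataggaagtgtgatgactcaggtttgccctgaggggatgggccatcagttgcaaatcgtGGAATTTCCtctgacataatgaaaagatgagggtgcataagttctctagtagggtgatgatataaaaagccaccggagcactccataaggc
CXCL6, chr4:73836428-73836677, plus strand: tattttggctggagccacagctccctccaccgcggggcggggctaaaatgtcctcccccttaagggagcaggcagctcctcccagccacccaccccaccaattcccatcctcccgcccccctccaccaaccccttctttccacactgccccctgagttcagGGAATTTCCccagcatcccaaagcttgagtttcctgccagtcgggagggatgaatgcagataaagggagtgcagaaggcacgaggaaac
CXCL3, chr4:74038690-74038939, minus strand: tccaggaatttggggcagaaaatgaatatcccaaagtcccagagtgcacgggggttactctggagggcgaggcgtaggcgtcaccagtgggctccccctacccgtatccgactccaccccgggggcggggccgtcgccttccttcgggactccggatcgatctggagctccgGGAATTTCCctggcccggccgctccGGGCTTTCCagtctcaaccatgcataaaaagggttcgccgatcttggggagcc
All 3 carry the letters GGAATTTCC, at 91 bases before the start in CXCL8, 89 in CXCL6 and 78 in CXCL3, and CXCL3 has another match at 53. Of the 16 list members with a promoter in the table, 12 hold a match, beside 5.48% of all 27305 promoters and 5.62% of those of tested genes. The 12 include members that rose, such as CXCL5 and CXCL2, and members that fell, such as IL32, TNFAIP2 and NFKBIA. IL1B, CXCL12, PTGS2 and PTGES have none in this window. The list was built with classic targets of NF-kB among its members, so its share of matches describes the list and not these cells. Here too a match describes the letters of the sequence and not binding.

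CXCL8, which encodes interleukin 8, was at 9.87 and 7.81 FPKM in double-negative and 1.76 and 1.38 FPKM in CD201-only cells (log2 difference 1.93 ± 0.25, adjusted p = 0.000916). IL1B, the gene of interleukin 1 beta, was at 41.4 and 42.1 FPKM against 12.1 and 12.2 FPKM (log2 difference 1.70 ± 0.048, adjusted p = 8.86e-07). CXCL6 rose from 1.55 and 1.69 to 4.45 and 5.72 FPKM and CXCL3 from 1.49 and 1.22 to 3.65 and 3.61 FPKM. In each of these 4 genes the groups did not overlap, as in 71.8% of all genes tested. CXCL8 and IL1B, among the 12 largest rises, were chosen in part for not overlapping. Double-positive cells were far above both for IL1B, at 177 and 195 FPKM, and above both for CXCL8, at 16.4 and 29.96 FPKM, so the CD201-only group was the lowest of the 3. The chemokine gene CCL2 rose by 0.86, the acute-phase gene SAA1 by 0.87 and the stromal chemokine gene CXCL12 by 0.69. PTGS2, the inducible cyclooxygenase, rose by 0.60, whereas PTGES, which acts after it to make prostaglandin E, fell by 0.67. The inhibitor of NF-kB encoded by NFKBIA fell by 0.18. Of the list, 16 genes were under the expression limit and 3 were listed at 0 in all 4 libraries.

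Interferon-stimulated and antigen-presentation genes were also higher. Of 29 tested interferon-response genes 15 rose and none fell, with a median of 0.221. Without IFIT1 and DDX60, which passed the expression limit through 1 group alone, 13 of 27 rose and none fell (median 0.18). IFI27, a mitochondrial interferon-induced protein, was the largest, from 197 and 196 to 508 and 510.4 FPKM (log2 difference 1.37 ± 0.021, adjusted p = 1.29e-07). TRIM22, an antiviral ubiquitin ligase, rose from 30.01 and 31.4 to 51.1 and 49.2 FPKM, IFI6 from 129 and 129 to 203 and 191 FPKM and HERC6 by 0.59. The response was not general: MX1, IRF1, IRF7, IFIT3, OAS1 and OAS3 were among the 14 members that were not called, with differences between -0.21 and 0.01. After the GC correction 15 were called higher and 1 lower. Of 21 tested antigen-presentation genes, 18 rose and none fell (median 0.252). HLA-B, a class I heavy chain, rose from 87.2 and 88.4 to 144 and 145 FPKM, with 293 and 307 FPKM in double-positive cells. B2M, the light chain of class I molecules, was at 234 and 241 FPKM against 136 and 172 FPKM (adjusted p = 0.0112), and its call was lost without any 1 of 3 libraries, without the filter on low values (0.0512) and with the robust variance trend (0.0818), and was kept without the second CD201-only library. The immunoproteasome gene PSMB9 rose by 0.61 and HLA-F by 0.59. HLA genes are similar in sequence and vary between people, so reads can be divided among them wrongly.

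**Figure D3:**
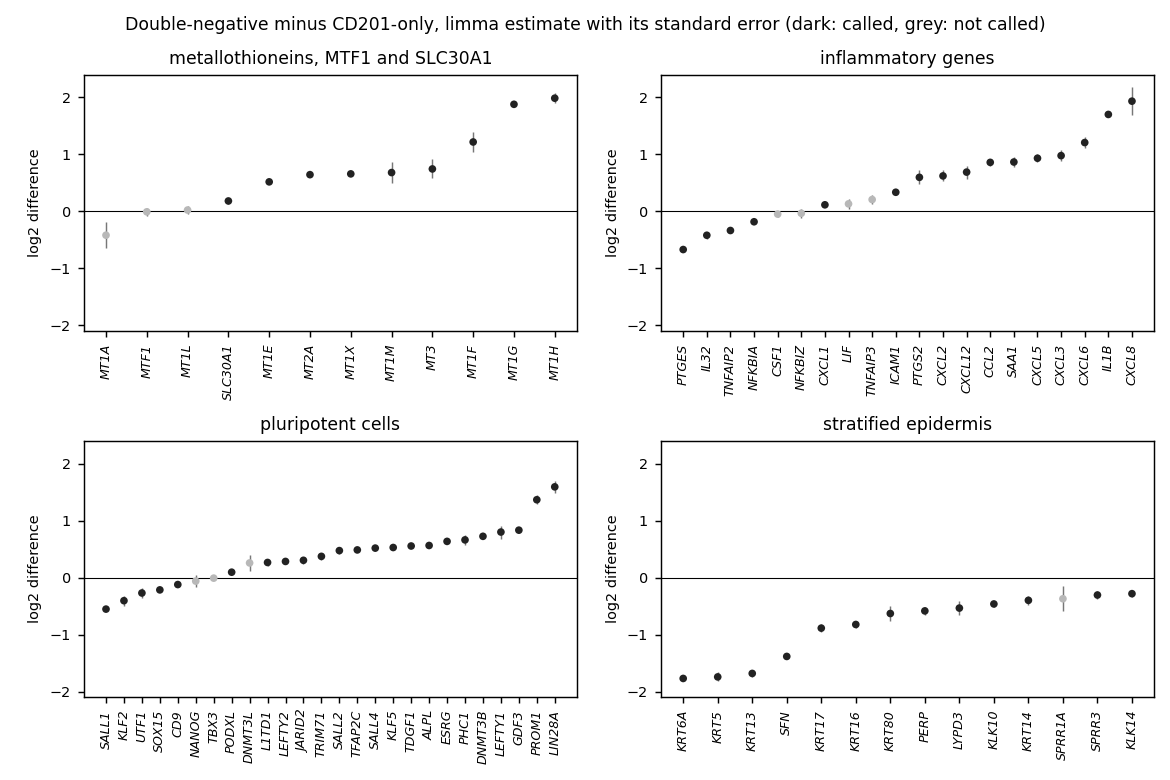
Log2 difference with its standard error (y axis) for each tested member (x axis) of 4 gene lists, double-negative minus CD201-only. Of the members shown, 9 of 12 genes in the metallothionein list (which includes MTF1 and SLC30A1), 12 of 20 inflammatory genes and 18 of 26 pluripotency genes rose, and 13 of 14 genes of stratified epidermis fell.

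Keratinocyte genes fell almost without exception. Of 36 listed genes of stratified epidermis 14 were tested, 13 of them fell, 7 by at least 1.5-fold, and the median difference was -0.607, the lowest of all lists. Without KRT13, KRT80 and SPRR1A, which passed the expression limit through 1 group alone, 11 of 11 fell (median -0.584). KRT6A, a keratin of activated epidermis, fell from 41.9 and 41.6 to 12.1 and 11.03 FPKM (by 1.77 ± 0.047, adjusted p = 7.08e-07). KRT5, the keratin of basal cells, fell from 9.84 and 9.74 to 2.05 and 2.41 FPKM, and KRT13 from 5.45 and 5.36 to 1.02 and 0.978 FPKM. SFN, an epithelial 14-3-3 protein, fell from 57.8 and 56.6 to 20.8 and 21.9 FPKM. The groups were far apart for all 4. The summed level of the 36 genes was 85.0 to 85.3 FPKM in double-negative libraries, 192 to 195 in CD201-only and 322 to 325 in double-positive libraries. TP63, the master regulator of this lineage, was at 0 and 0.02297 FPKM and 0.0405 and 0.0163 FPKM, and 11 of the 36 genes were under 0.1 FPKM in all 4 libraries. Double-positive cells were the highest for KRT6A (74.7 and 77.95 FPKM) but not for KRT5 (5.68 and 6.18 FPKM) or SFN (22.9 and 21.999 FPKM).

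Simple epithelial genes were lower too, but with members on both sides. Of 28 tested genes for junctions and keratins 16 fell and 8 rose, and the median was -0.361. Without PKP1 and RAB25, which passed the expression limit through 1 group alone, 14 of 26 fell and 8 rose (median -0.296). CLDN4, a tight-junction claudin, fell from 46.7 and 45.7 to 9.11 and 8.22 FPKM, 5.33 times lower (log2 difference -2.29 ± 0.051, adjusted p = 3.25e-07). KRT19 fell from 66.9 and 67.4 to 27.5 and 26.8 FPKM, GRHL3, a transcription factor of surface epithelium, from 21.5 and 21.1 to 8.98 and 9.695 FPKM, and the desmosomal plakophilin PKP1 by 0.97. The abundant simple keratins changed less, with KRT8 lower by 0.33 (from 1869 and 1834 to 1470.4 and 1477 FPKM) and KRT18 by 0.44. Members that rose were the polarity gene PATJ (0.73), the protease inhibitor gene SPINT1 (0.74), TJP1 (0.27) and OCLN (0.21). CDH1, which encodes E-cadherin, was at 2.63 and 2.37 FPKM against 3.09 and 2.97 FPKM and was not called (log2 difference -0.20, adjusted p = 0.103), but it was called lower under quantile normalization (0.0358) and in limma without the variance trend (0.0474). In CD201-only cells the keratin genes KRT8 and KRT19 were higher than in either other group, at 817 and 782 FPKM and 35.8 and 33.3 FPKM in double-positive cells.

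Several of the largest falls were in genes listed for lineages other than fibroblast and epithelium. HAND1, a transcription factor of extraembryonic and lateral mesoderm, fell from 93.9 and 92.8 to 17.7 and 16.5 FPKM, 5.45 times lower (log2 difference -2.38 ± 0.045, adjusted p = 2.19e-07), and stood at 36.7 and 34.7 FPKM in double-positive cells. BMP4, a growth factor that induces these lineages, fell from 11.1 and 11.2 to 3.61 and 4.03 FPKM. Of 11 tested trophoblast and amnion genes 6 fell and 3 rose (median -0.124), and CDX2 and GATA3 were at 0 and 0.0415 and 0.0813 and 0.0348 FPKM in double-negative cells. FOXA1, a pioneer factor of endoderm, rose from 0.641 and 0.606 to 2.76 and 2.57 FPKM. Only 7 of 26 listed mesoderm and endoderm genes were tested, of which 4 rose and 2 fell, and SOX17 was listed at 0 in all 4 libraries. Without FOXA1, which passed the expression limit through 1 group alone, 3 of 6 rose and 2 fell. Of 11 tested endothelial genes 6 fell and 3 rose (median -0.563). Without KDR and TIE1, which passed the expression limit through 1 group alone, 5 of 9 fell and 2 rose. NOS3, the endothelial nitric oxide synthase, fell from 10.7 and 11.5 to 3.11 and 3.25 FPKM, and the angiopoietin receptor TEK from 24.6 and 26.4 to 13.5 and 13.9 FPKM, whereas the VEGF receptor KDR rose from 0.861 and 1.06 to 3.07 and 3.05 FPKM. PECAM1, a defining endothelial gene, was listed at 0 in both double-negative libraries and at 0.0137 and 0.0334 FPKM in CD201-only cells. Of 9 tested blood genes 4 fell and 2 rose (median -0.283). Without the 2 that passed the limit through 1 group alone, 3 of 7 fell and 2 rose (median -0.183). CD34 fell from 49.7 and 50.3 to 13.9 and 13.6 FPKM (log2 difference -1.79, adjusted p = 2.19e-07), and CD14 rose from 9.74 and 8.13 to 19.6 and 20.01 FPKM. The blood genes SPI1, GATA1 and TAL1 were under 0.1 FPKM in all 4 libraries. PTPRC, under the expression limit, was at 0.788 and 0.886 FPKM in double-negative and 0.121 and 0.173 FPKM in CD201-only cells. Neural genes gave 3 rises and 6 falls among 11, led by the microtubule protein gene MAP2, which rose from 29.2 and 29.2 to 62.1 and 61.2 FPKM. Without the 1 neural gene that passed the limit through 1 group alone, 3 of 10 rose and 5 fell.

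The remaining large falls are of mixed function. LYPD2, a gene of the Ly6 family of surface proteins, had the largest fall among the genes chosen for size (called, not overlapping, at least 5 FPKM in the higher group, no small RNAs), from 30.5 and 31.02 to 4.57 and 3.93 FPKM, 7.24 times lower (log2 difference -2.60 ± 0.06, adjusted p = 4.13e-07). RNASE1, a secreted ribonuclease, fell from 93.3 and 93.8 to 21.1 and 19.4 FPKM and the transglutaminase gene TGM2 from 86.2 and 85.2 to 21.2 and 20.3 FPKM. PDE2A, a cyclic nucleotide phosphodiesterase, was at 0.755 and 0.755 FPKM against 7.35 and 7.55 FPKM, 9.87 times lower. The actin-binding protein gene LSP1 fell by 2.02, ISLR by 1.95 and PLAC8 by 1.91. The noncoding RNA LINC01405 was at 0.383 and 1.95 FPKM in double-negative libraries, far apart from each other, and at 10.7 and 11.6 FPKM in CD201-only libraries (log2 difference -2.58 ± 0.38). With a pseudocount of 0.1 the differences of LINC01405 (-3.494) and PDE2A (-3.142) exceeded that of LYPD2 (-2.831) in size. On the other side, CD36, a fatty acid transporter, rose from 3.69 and 3.996 to 15.3 and 14.01 FPKM, KCTD12 from 32.03 and 30.9 to 106 and 106 FPKM and the monooxygenase-like gene MOXD1 from 12.7 and 12.5 to 46.7 and 46.9 FPKM. LINC00678 rose from 19.2 and 22.1 to 67.4 and 74.7 FPKM and the antisense RNA LYPLAL1-AS1 from 1.23 and 1.42 to 6.903 and 6.38 FPKM. The library kit keeps strand, but the counting option is not given in the sources used here, so reads of LYPLAL1-AS1 and its partner gene may be mixed.

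**Figure D4:**
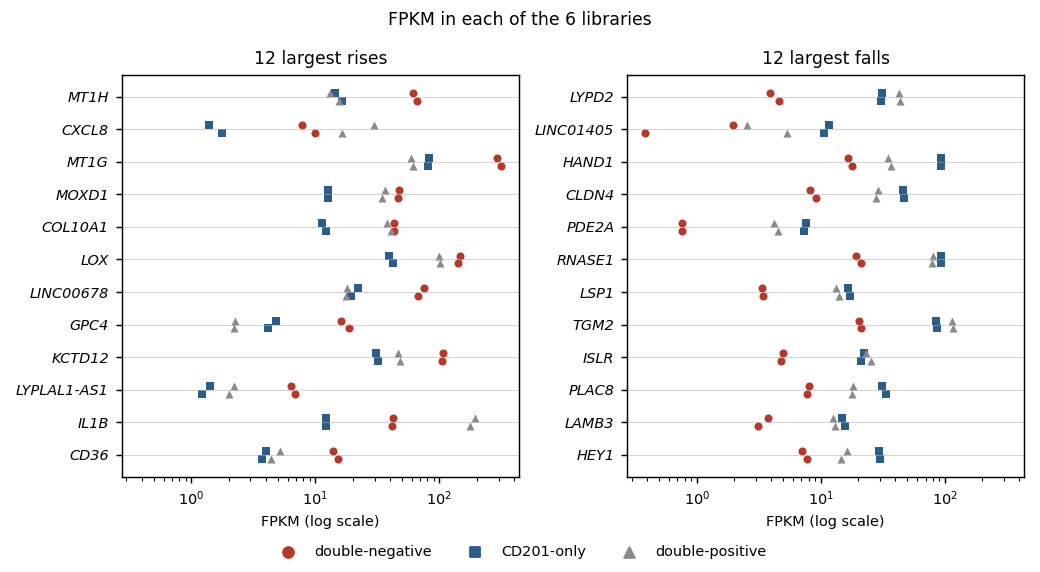
FPKM (x axis, log scale) in each library for the 12 largest rises and 12 largest falls that were called, did not overlap between groups and reached 5 FPKM in the higher group. Replicates of a group lie close together for nearly all genes, apart from LINC01405, and the double-positive libraries fall below, between or above the CD13-negative groups.

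The extracellular matrix was rearranged rather than moved in 1 direction. Of 18 tested collagens 10 rose and 4 fell (median 0.164). COL5A3 rose from 1.87 and 1.97 to 6.26 and 6.32 FPKM and COL11A1 from 24.9 and 24.3 to 58.2 and 59.5 FPKM, COL5A2 rose by 0.81, and COL1A1 by 0.32. COL7A1, the anchoring fibril collagen beneath epithelia, fell from 43.5 and 42.5 to 24.3 and 24.4 FPKM. COL10A1, a network collagen known from hypertrophic cartilage, was not among the 18 collagens counted. It was among the 12 largest rises, from 12.1 and 11.3 to 43.2 and 43.4 FPKM (log2 difference 1.80 ± 0.046, adjusted p = 6.39e-07). LOX, the enzyme that cross-links collagen and elastin, rose from 42.2 and 39.6 to 142 and 146 FPKM, and its relative LOXL2 from 34.3 and 34.5 to 72.7 and 73.7 FPKM. PCOLCE, an enhancer of procollagen cleavage, fell from 316 and 307 to 179 and 185 FPKM. Among all 20 tested processing genes 9 rose and 5 fell, with a median of 0.0266, close to that of all genes, and of -0.0246 without P4HA3, which passed through 1 group alone.

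Matrix glycoproteins were divided. Of 33 tested, 10 rose and 15 fell, 5 and 9 of them by at least 1.5-fold, and the median was -0.0773. FN1, fibronectin, rose from 65.2 and 69.2 to 171 and 167 FPKM (log2 difference 1.32 ± 0.035, adjusted p = 7.08e-07), and THBS1, thrombospondin 1, from 43.1 and 44.4 to 86.97 and 87.2 FPKM. The elastic-fibre genes MFAP4, from 408 and 413 to 135 and 133 FPKM, and FBLN2, from 45.6 and 45.4 to 16.6 and 16.2 FPKM, fell, as did TGFBI, from 294 and 303 to 111 and 109.7 FPKM. For FN1 and THBS1 the double-positive cells were far above both CD13-negative groups, at 575 and 595 and 383 and 383 FPKM, while for MFAP4 they lay between them, at 257 and 255 FPKM. Of 26 tested proteases and inhibitors 14 rose and 6 fell (median 0.19), and the collagenase gene MMP1 rose from 3.24 and 2.56 to 7.71 and 6.35 FPKM, the stromelysin gene MMP3 from 0.573 and 0.605 to 2.48 and 2.3997 FPKM and the membrane-type MMP16 from 1.902 and 2.21 to 6.61 and 6.77 FPKM. Of 22 integrins and laminins 11 rose and 6 fell. Without LAMA3, a laminin chain that rose and passed the expression limit through 1 group alone, 10 of 21 rose and 6 fell. Both chains with the largest falls belong to the hemidesmosome of epithelia, ITGB4, from 21.8 and 21.8 to 8.35 and 8.23 FPKM, and LAMB3, from 15.8 and 14.8 to 3.103 and 3.73 FPKM, whereas ITGA1, LAMA4 and the common beta chain ITGB1 rose by 0.98, 0.79 and 0.73. Of the plasma membrane proteoglycans, SDC1 and SDC4 fell by 0.60 and 0.65 and GPC2 rose by 0.71.

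Mesenchymal regulators were lower more often than higher. Of 27 tested genes 14 fell and 8 rose (median -0.139). S100A4, also called fibroblast-specific protein, fell from 2568 and 2563 to 1269 and 1271 FPKM (by 1.01 ± 0.02, adjusted p = 2.19e-07), and SNAI1, a repressor of epithelial genes, from 24.5 and 24.3 to 12.2 and 11.2 FPKM. CDH2, N-cadherin, rose from 41.5 and 42.1 to 91.6 and 90.6 FPKM, and TBX2 rose from 3.06 and 2.79 to 6.703 and 7.12 FPKM. Vimentin (VIM) was lower by only 0.14, and under quantile normalization this was -0.0288 and no longer called. S100A4 belongs to a family that was mostly lower: of 20 tested S100 proteins and annexins 12 fell and 4 rose (median -0.38), with S100A3 going from 33.2 and 28.8 to 8.07 and 7.59 FPKM and S100A10 from 313 and 314 to 205 and 205 FPKM. ANXA1 and ANXA2 rose by 0.58 and 0.38. Of 26 contractile genes 13 fell and 5 rose, and the 2 smooth-muscle actins went opposite ways: ACTA2 fell from 29.2 and 31.9 to 20.3 and 17.5 FPKM and ACTG2 rose from 38.2 and 37.8 to 120.5 and 118 FPKM.

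The pathway of CD201 itself was covered only in part, since 16 of 31 listed genes of coagulation and plasminogen activation were tested. Thrombomodulin (THBD), under the expression limit, was at 0.106 and 0.259 FPKM in double-negative and 0.972 and 0.808 FPKM in CD201-only cells. Double-positive cells had 2.67 and 1.96 FPKM. PROS1, also under the limit, went the other way, at 1.01 and 1.18 FPKM in double-negative and 0.592 and 0.562 FPKM in CD201-only cells. Of 16 tested genes of coagulation and plasminogen activation 5 rose and 7 fell, 1 of the 7 being the sort gene, and the median was -0.0125. PLAT, tissue plasminogen activator, fell from 106 and 106 to 45.8 and 47.2 FPKM (log2 difference -1.17 ± 0.033, adjusted p = 8.86e-07). The thrombin receptor gene F2R rose by 0.37, and tissue factor (F3) fell by 0.16. The protein C gene PROC was not called (0.13, adjusted p = 0.359). Among 8 tested surface peptidases, MME, known as CD10, rose from 16.6 and 17.7 to 26.6 and 26.6 FPKM, and CPM fell from 7.48 and 8.43 to 4.81 and 4.72 FPKM. SERPINB9, an inhibitor of granzyme B, rose from 26.6 and 26.1 to 80.7 and 76.5 FPKM.

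In the BMP pathway, the ligand gene BMP4 and the targets ID1 and ID2 fell, and several genes of receptors and signal transducers rose. Of 21 tested genes 10 rose and 8 fell (median 0.114), with 1 rise and 6 falls of at least 1.5-fold. Without BMP2 and BMP6, which passed the expression limit through CD201-only cells alone, 10 rose and 6 fell among 19. BMP6 fell from 1.68 and 1.76 to 0.328 and 0.312 FPKM and BMP2 by 0.55. Target genes ID1 and ID2 fell by 0.89 and 0.75, and ID3 was not called (-0.01). Among secreted antagonists NOG fell from 12.9 and 12.2 to 5.67 and 6.401 FPKM, and GREM1 rose from 5.07 and 5.14 to 12.3 and 12.3 FPKM. SMAD1, ACVR1 and BMPR1A rose by 0.56, 0.47 and 0.33. In the NOTCH list, 6 of 23 rose and 8 fell, and the hairy-related repressor genes HEY1, from 30.2 and 29.6 to 7.79 and 7.13 FPKM (log2 difference -1.87 ± 0.067, adjusted p = 2.98e-06), HES1, from 18.3 and 19.4 to 9.503 and 10.6 FPKM, and HES2 were all lower, while the inhibitory ligand DLL3 rose from 12.9 and 12.9 to 24.1 and 26.1 FPKM. The receptor gene NOTCH1 fell by 0.47 and NOTCH3 rose by 0.49.

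In the WNT list 13 of 32 tested genes rose and 7 fell. The feedback targets DKK1 and AXIN2 rose from 4.28 and 3.89 to 9.66 and 8.67 FPKM and from 3.26 and 3.16 to 5.61 and 5.897 FPKM, and the ligand WNT7A fell from 2.62 and 2.35 to 0.2398 and 0.161 FPKM. TGF-beta genes were divided 12 to 13 among 31: LTBP1, which stores the latent ligand, rose from 7.997 and 8.24 to 17.5 and 17.3 FPKM, and the ligands TGFB1 and TGFB2 fell by 0.33 and 0.36. Of 24 FGF and ERK feedback genes 9 rose and 3 fell, with DUSP6 up by 0.49. MET, the receptor of hepatocyte growth factor, rose from 8.75 and 9.004 to 21.4 and 20.3 FPKM, and AXL and EGFR fell by 0.85 and 0.65.

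Genes of the insulin-like growth factor axis gave some of the largest falls by abundance. H19, an imprinted noncoding RNA next to IGF2, fell from 4494 and 4423 to 1554 and 1572 FPKM (by 1.51 ± 0.02, adjusted p = 1.29e-07), and IGF2 from 459.7 and 455 to 189.8 and 189 FPKM (by 1.27 ± 0.02, adjusted p = 1.29e-07). The binding proteins IGFBP6 and IGFBP4 fell by 1.19 and 1.04, while PAPPA, a protease that cleaves IGFBP4, rose by 0.95. Of 15 tested members 6 rose and 7 fell. Of 20 imprinted genes tested 5 rose and 4 fell, so H19 and IGF2 do not stand for imprinted genes as a class. In retinoic acid handling, CRABP2, a carrier of retinoic acid to the nucleus, fell from 525 and 513 to 146 and 151 FPKM (log2 difference -1.80 ± 0.036, adjusted p = 2.19e-07) and the retinol importer STRA6 from 42.9 and 41.5 to 19.3 and 18.8 FPKM, whereas ALDH1A1, which makes retinoic acid, rose from 38.9 and 45.8 to 116 and 116 FPKM and CYP26B1, which degrades it, by 0.86. The receptors RARA, RARB, RARG and RXRA fell by 0.26 to 0.40.

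AP-1 subunits, dimeric factors tied to fibroblast identity and to stress, were mostly lower. Of 13 tested 8 fell and 2 rose (median -0.261). JUN fell from 70.8 and 69.99 to 40.4 and 40.8 FPKM (by 0.78 ± 0.027, adjusted p = 2.56e-06), FOSL2 from 14.3 and 14.8 to 8.74 and 7.95 FPKM and JUNB from 35.9 and 34.9 to 22.04 and 22.6 FPKM. Of 20 other immediate-early genes 10 fell, led by GADD45B, from 24.5 and 26.3 to 13.1 and 12.3 FPKM, and 6 rose, led by EGR1, from 27.2 and 26.96 to 45.8 and 44.5 FPKM. A list of genes induced by cell handling shares many of these members. Of its 23 tested genes 13 fell and 3 rose (69.6% called, median -0.175). The summed level of the list was 1405 FPKM in both double-negative libraries and 1534 to 1546 FPKM in CD201-only libraries. The part of cell handling in the result was not tested. Of 37 cell-cycle inhibitors and growth arrest genes 20 fell and 3 rose (median -0.161). CDKN1A, p21, fell from 395 and 391 to 315 and 318 FPKM, PHLDA3 from 153 and 149 to 103 and 102 FPKM and CDKN2C by 0.58. CDKN2A, which encodes p16, fell by 0.16, and after the GC correction that was -0.07 and not called. YAP and TEAD targets were divided, 9 higher and 14 lower among 29, with ANKRD1 going from 12.04 and 11.1 to 3.79 and 3.64 FPKM.

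Endoplasmic reticulum chaperones rose in small steps. Of 25 tested 17 rose and none fell, with a median of 0.241, but only 1, EDEM1, reached 1.5-fold, from 9.32 and 9.78 to 15.7 and 14.7 FPKM. HSP90B1 rose from 180.3 and 182 to 235 and 232 FPKM, the stress sensor ATF6 by 0.52 and HSPA5, the main chaperone BiP, by 0.26. After the GC correction the median was 0.166, with 16 higher and 1 lower. Of 29 genes of the amino acid response 16 rose and 5 fell (median 0.237). The cystine importer SLC7A11 rose from 16.1 and 14.5 to 29.9 and 29.4 FPKM, the asparagine synthetase ASNS from 5.06 and 6.62 to 10.4 and 10.95 FPKM and CTH, which makes cysteine, from 12.1 and 13.3 to 20.3 and 20.2 FPKM, while ATF4 was not called (0.02, adjusted p = 0.484). Of 25 oxidative stress genes 9 rose and 5 fell. HMOX1, heme oxygenase, rose from 17.1 and 15.3 to 29.6 and 32.5 FPKM and peroxiredoxin PRDX1 from 491 and 544 to 733 and 739 FPKM, and ALDH3A1 fell from 28.5 and 26.8 to 12.9 and 12.1 FPKM. Among lysosomal genes LIPA, the acid lipase, rose from 6.47 and 7.02 to 16.02 and 15.3 FPKM. Of 33 lipid synthesis genes 9 rose and 6 fell, with ELOVL6 up by 0.74.

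Ribosomal, cell-cycle and respiratory chain genes were called at shares near the background of 37.9% or below it. Of 78 cytosolic ribosomal protein genes none rose and 15 fell (19.2%), with a median of -0.0159. Of 75 mitochondrial ribosomal protein genes 2 rose and 11 fell (17.3%). Of 52 S-phase genes 4 rose and 10 fell (26.9%), and of 51 genes of G2 and mitosis 5 rose and 15 fell (39.2%), none of either by 1.5-fold. MKI67, a marker of cycling cells, was lower by 0.20, at 25.3 and 26.04 FPKM against 29.1 and 30.2 FPKM. Respiratory chain genes numbered 13 rises and 8 falls among 63 (33.3%), and their median of 0.0479 became -0.0118 after the GC correction. Genes of glycolysis and sugar transport were called more often (59.4%) but in both directions, 11 higher and 8 lower among 32, with the glucose transporter SLC2A1 falling from 184 and 183 to 131 and 132 FPKM and the lactate exporter SLC16A3 from 93.6 and 91.2 to 59.2 and 57.9 FPKM. Mitochondrially encoded genes were not analysed here.

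Chromatin regulators changed little. Of 56 Polycomb and histone methylation genes 9 rose and 5 fell (25.0%), of 49 remodelling subunits 13 rose and 6 fell (38.8%), and of 19 genes of DNA methylation 3 rose and 2 fell (26.3%). The members beyond these small shifts were DNMT3B and PHC1, given above, with RBBP7, a histone-binding subunit, from 40.1 and 41.1 to 60.4 and 61.5 FPKM and CBX7 falling from 2.58 and 2.43 to 1.42 and 1.55 FPKM. UHRF1, which guides maintenance methylation, fell from 18.9 and 18.5 to 13.5 and 13.1 FPKM. Splicing factors gave 9 rises and 2 falls among 37, and their median of 0.06 became -0.0307 after the GC correction. Of 21 HOX genes, which record positional identity, 3 rose and 4 fell (33.3%), and the largest, HOXA13, was at 2.42 and 2.58 FPKM against 3.68 and 5.05 FPKM and lost its call without the first double-negative library (adjusted p = 0.062).

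**Figure D5:**
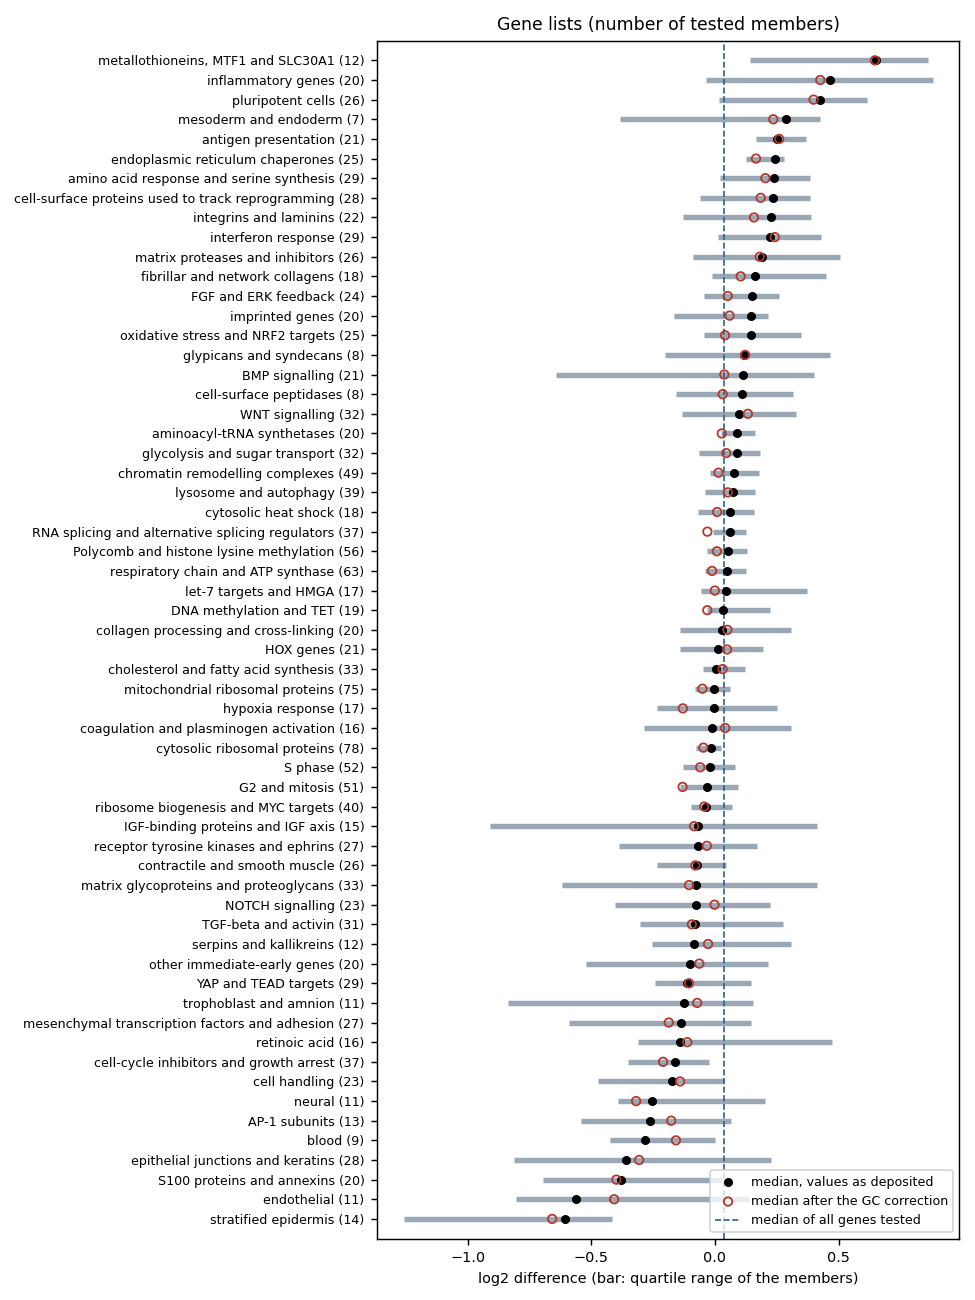
Median log2 difference (x axis) of the tested members of each gene list (y axis, number of members in brackets), with bars from the lower to the upper quartile. The metallothionein list has the highest median (0.651) and genes of stratified epidermis the lowest (-0.607), the dashed line marks all genes (0.0369), and open circles give the medians after the GC correction.

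The double-positive libraries enter the comparison only through the shared estimate of the spread, and their levels are set beside it here. Of the 480 genes at least 1.5-fold higher in double-negative cells, the double-positive mean was below both other groups for 195 (40.6%), between them for 185 (38.5%) and above both for 100 (20.8%). For the 426 genes at least 1.5-fold lower these numbers were 43 (10.1%), 222 (52.1%) and 161 (37.8%). POU5F1 and SOX2 lay near their CD201-only levels in double-positive cells, POU5F1 at 536 and 513 FPKM and SOX2 at 452 and 448 FPKM. By contrast, IL1B, FN1 and THBS1 had their lowest levels in CD201-only cells. HAND1, HEY1 and H19 had their highest levels in CD201-only cells, with H19 at 2260.1 and 2226 FPKM in double-positive cells. These positions are descriptions, and the differences from double-positive cells were not tested here.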

How the data were processed

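Stranded poly-A libraries were sequenced on day 8 (6 libraries), per the labels' protocols. A single table of FPKM values was deposited by the authors, with 27788 gene symbols and 6 library columns. Per the submitters' processing notes, the deposited FPKM were made with STAR and Cuffnorm on hg19 (GRCh37). Their versions, options and annotation were not given in the sources used here. Counts were not analysed here, so depth is known only relatively.

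Genes averaging 1 FPKM or more over the 4 CD13-negative libraries, 12125 in all, were tested on log2(FPKM + 1). The pseudocount of 1 understates changes of low genes. limma 3.58.1 under R 4.3.3 fitted 1 mean per group to all 6 libraries with a variance trend (3 residual degrees of freedom, prior 4.08). Two-sided p-values of double-negative minus CD201-only were adjusted by Benjamini-Hochberg over all genes tested, and the call was made under 0.05. Sizes of 1.5-fold and 2-fold apply to the log2(FPKM + 1) scale. The fit was also run on simulated data with independent errors, fewer changed genes and no shift with GC content. That run does not measure the accuracy of the calls made here. Tables and plots used Python 3.11.15 (pandas 2.3.3; numpy 2.4.6; matplotlib 3.10.9).

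The comparison, the 61 gene lists and the rule for named genes were chosen with earlier results of these data known, so counts over lists are descriptions, with no set test. Named genes were the reprogramming and sort genes, the 12 largest rises and 12 largest falls (called, not overlapping, at least 5 FPKM in the higher group, no small RNAs), up to 4 called members with the largest difference in each list with at least 3 calls, and 12 defining genes such as NANOG and CDH1. Other list members in the text were chosen after their values were seen. Some list members are not reported here. Transcript GC content came from GENCODE transcripts on GRCh38, matched by symbol for 11865 genes, and the GC correction, a lowess curve with a span of 0.3, was added after seeing the data. Promoters came from RefSeq on GRCh38.p14, matched by symbol, and no coordinates were converted between builds. Other alternatives were the pseudocount, the filter, rescaling, the variance model, the libraries fitted and leaving out each library.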

Additional observations from a re-analysis of the deposited data

How the results depend on the processing

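Leaving out 1 library gave 2884 to 4889 calls against 4590, with 1582 to 2807 higher and 1302 to 2084 lower. The counts were below 4590 without a library of the groups compared (2884 to 3369, lowest without double-negative replicate 1) and above it without a double-positive library (4886 and 4889). Counts at 1.5-fold ranged from 910 to 929 and at 2-fold from 277 to 290 in those fits, and the PROCR difference from -1.456 to -1.351. With a mean of at least 5 FPKM, where fewer genes are tested, 526 genes were called at 1.5-fold and 176 at 2-fold, and with a pseudocount of 0.1, which stretches low values by construction, 470 were called at 2-fold. The share of calls that were higher was 56.7%, and 46.9% after median-ratio rescaling, 50.3% after quantile normalization and 52.8% after the GC correction. That correction gave 4103 calls, and 69.1% of the higher and 77.5% of the lower calls stayed called in the same direction. The correlation of same-numbered deviations was 0.0784 between double-negative and CD201-only, -0.0897 between double-negative and double-positive and 0.124 between CD201-only and double-positive libraries, so replicate numbers were not taken to pair the libraries, and a fit with the replicate number as a block gave 4595 calls, 2628 higher and 1967 lower, with 909 at 1.5-fold and 277 at 2-fold. NANOG, not called as deposited (-0.06), ran from -0.2181 to 0.0935 when 1 library was left out, with the positive value without CD201-only replicate 1 (adjusted p = 0.538), and the cause was not tested. Of 32 lists with a median of at least 0.1 in size 31 kept its sign in every setting run, the neural list being the exception with a mean of at least 5 FPKM, while 12 of 28 lists with a smaller median changed sign in some setting. Precision was lower for genes of 1 to 10 FPKM, with a median coefficient of variation between replicates of 5.23% and 5.44%, than for abundant genes.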
